A study of Mus musculus with 6 samples.

Results

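The genes described here are 40 genes of the mouse cell cycle, found by symbol in all 6 single-cell RNA libraries of embryonic back skin among 28000 measured genes. They comprise 21 genes of G2 and mitosis (G2/M), 13 genes of DNA synthesis (S), the 3 D-type cyclins and 3 inhibitors of cyclin-dependent kinases, and all 40 were detected. Skin of the dorsolateral flank was pooled over 3 to 4 embryos per library, dissociated, and sorted to remove cells stained by DAPI, a dye that enters dead cells. The groups were control skin at embryonic day 13.5 (E13.5, n = 2 libraries), control skin at E14.5 (n = 2), and skin labelled LOF, for loss of function, at E13.5 (n = 1) and E14.5 (n = 1). Controls are labelled wild type, CD1. LOF embryos are labelled PDGFRalphaCreER(Lo);beta-catfl/fl;mTmG and received tamoxifen at E11.5. The Cre is driven by the Pdgfra promoter, so deletion of beta-catenin is directed to dermal mesenchyme and not to epidermis, it is timed by tamoxifen, and the mTmG allele marks recombined cells with green fluorescent protein. The labels do not say that the controls received tamoxifen or carry the reporter. A library is the replicate, and single embryos of a pool were not distinguished.

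Cells copy their DNA in S phase and divide in mitosis after the gap called G2. Licensing factors such as the Mcm2 to Mcm7 helicase are made as cells enter S phase under E2F transcription factors, and mitotic genes such as Ccnb1 and Plk1 are switched on later through promoters bound by NF-Y and by complexes that read the cell cycle homology region. D-type cyclins carry growth signals, Wnt among them, to the kinases Cdk4 and Cdk6, and inhibitors such as Cdkn1a (p21), Cdkn1b (p27) and Cdkn2c (p18) hold the kinases back. In developing skin, Wnt signalling through beta-catenin marks the upper dermis, dermal condensates that leave the cycle form beneath each hair placode, and epidermal cells leave the cycle as they move from the basal into the suprabasal layers.

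Promoters of the G2/M genes and of the S genes differed in the letters they hold, and the sequences are shown because most comparisons below report these groups apart. In several of those comparisons both groups moved in the same direction. RefSeq promoter windows (GRCm38.p6, from 250 bases before to 50 bases after each transcription start) were matched for 34 of the 40 genes. The cell cycle homology region was searched as TTTGAA or TTCGAA, the NF-Y motif as CCAAT, and E2F motifs as TTTCCCGC, TTTGGCGC or TTTCGCGC, all on both strands. The homology region was present in 15 of 19 G2/M genes (78.9%) and 2 of 11 S genes (18.2%), against 21.7% of all 27025 genes of the table. CCAAT was present in 16 of 19 G2/M genes (84.2%) and 7 of 11 S genes (63.6%), against 41.1% of all genes. An E2F motif was present in 1 of 19 G2/M genes (5.26%) and 5 of 11 S genes (45.5%), against 2.12% of all genes. None of the 3 inhibitors and not Ccnd3, the 1 matched cyclin D gene, held the homology region or an E2F motif. These matches are a description of letters and not of binding. The windows below, 5′ to 3′ on the strand of the gene, show motif letters in capitals, with adjoining motifs written as 1 run. Cdk1, the mitotic kinase, Ube2c and Cdc20, partners of the ubiquitin ligase that ends mitosis, and Mki67, the proliferation antigen Ki-67, represent G2/M. The helicase subunits Mcm5 and Mcm6 represent S.
Cdk1: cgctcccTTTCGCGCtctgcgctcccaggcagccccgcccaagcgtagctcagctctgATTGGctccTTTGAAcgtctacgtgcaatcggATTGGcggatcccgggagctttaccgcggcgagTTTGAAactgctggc
Ube2c: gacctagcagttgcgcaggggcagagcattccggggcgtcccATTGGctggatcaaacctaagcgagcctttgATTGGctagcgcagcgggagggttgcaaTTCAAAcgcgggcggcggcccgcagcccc
Cdc20: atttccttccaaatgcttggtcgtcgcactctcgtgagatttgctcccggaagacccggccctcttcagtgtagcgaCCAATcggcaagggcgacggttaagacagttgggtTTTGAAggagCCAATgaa
Mki67: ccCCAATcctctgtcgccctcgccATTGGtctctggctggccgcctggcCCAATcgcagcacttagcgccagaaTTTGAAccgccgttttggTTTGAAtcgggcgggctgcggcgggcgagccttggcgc
Mcm5: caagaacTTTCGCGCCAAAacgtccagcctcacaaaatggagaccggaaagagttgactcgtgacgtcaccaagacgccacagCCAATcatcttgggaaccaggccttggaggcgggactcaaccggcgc
Mcm6: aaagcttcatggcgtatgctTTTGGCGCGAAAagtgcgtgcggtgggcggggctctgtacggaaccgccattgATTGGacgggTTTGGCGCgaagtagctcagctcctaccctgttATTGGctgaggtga
CCAAT and TTTGAA appear as ATTGG and TTCAAA where they lie on the other strand. In the window of Cdk1 (chr10:69352913-69353050, minus strand) an NF-Y motif precedes each copy of the homology region. The windows of Ube2c (chr2:164769799-164769928, plus strand) and Cdc20 (chr4:118437344-118437473, minus strand) have 1 copy of the homology region, and that of Mki67 (chr7:135716440-135716569, minus strand) has 2. The windows of Mcm5 (chr8:75109349-75109478, plus strand) and Mcm6 (chr1:128359706-128359835, minus strand) have overlapping E2F motifs and no homology region.

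The libraries held 6096 to 9152 cell barcodes each and 40653 cells in all were kept, with 53461986 to 86446575 unique molecular identifiers (UMIs, counted mRNA molecules) per library. Pairs of libraries shared 45 to 103 barcodes. Fibroblasts were cells with at least 15 UMIs of Col1a1, Col1a2 and Col3a1 and no other class rule met (22046 cells), and keratinocytes had at least 10 UMIs of Krt5, Krt14, Epcam and Perp (8759 cells). Markers not used in the rule fitted these names: Pdgfra, a receptor of dermal mesenchyme, was at 51.1 to 257 UMIs per 1000000 UMIs of the class (CPM) in fibroblasts and 0.803 to 1.87 CPM in keratinocytes, and Trp63, the epidermal transcription factor, at 0.972 to 3.55 CPM and 154 to 220 CPM. The reporter row eGFP was at 350 and 324 CPM in LOF fibroblasts, but also at 119 and 93.8 CPM in fibroblasts of replicate 2 of both control groups, against 2.98 and 5.35 CPM in replicate 1. The replicate 2 control libraries therefore go against a label of wild type without a reporter. Whether this touches the comparisons of genotype was not tested beyond the values without those libraries given there. A second pattern ran across the labels: in fibroblasts, keratinocytes, macrophages and muscle, replicate 1 of the E14.5 control and the E14.5 LOF library shared high levels of genes such as Hist1h1b, a histone gene, at 834 and 679 CPM in fibroblasts against 15.0 to 26.0 CPM in the other 4 libraries. Among the 40 genes, Mki67, Top2a, Cenpe, Hmmr, Kif11, Prc1, Anln and Cdkn1b followed this pair by more than 1.5-fold in both fibroblasts and keratinocytes. The labels name no batch. Comparisons between classes within a library are not affected by a shift that all cells of a library share, and come first.

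Fibroblasts with active Wnt targets had higher levels of nearly the whole set. Fibroblasts were called Wnt-high with at least 4 UMIs of Lef1, Sp5, Nkd1 and Axin2, targets of Wnt signalling, and Wnt-low with at most 1. In the 4 control libraries 36 of the 40 genes were higher in Wnt-high cells and 1 was lower (edgeR quasi-likelihood test on summed counts with library as a block, Benjamini-Hochberg adjusted p under 0.05). Of all 12707 genes tested, 18.2% were called higher and 17.8% lower, 36.1% together. The median log2 fold change was 1.11 over the 40 genes and 0.0031 over all genes. Median UMIs per cell were 7620 to 11679 in Wnt-high and 7006 to 9498 in Wnt-low cells of the controls. The count was 34 to 37 under every alternative run, which included cells of 6000 to 14000 UMIs only and a split made after thinning every cell to 4000 UMIs.

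All 21 G2/M genes were higher, by log2 0.85 for Cenpa, the centromere histone, to 1.53 for Aurkb, a kinase of the chromosome passenger complex. Aurkb in Wnt-high fibroblasts of controls was at 77.6 and 105 CPM for E13.5 and at 87.5 and 104 CPM for E14.5. In Wnt-low fibroblasts of the same libraries it was at 31.9, 30.0, 30.5 and 35.9 CPM, so the classes did not overlap (log2 1.53, SE 0.09, adjusted p = 3.19e-05, edgeR). Ccnb1, the cyclin that activates Cdk1 at entry into mitosis, was at 142, 223, 140 and 194 CPM in Wnt-high and 64.3, 65.5, 54.4 and 55.2 CPM in Wnt-low cells (log2 1.51, SE 0.11). The promoter group shown above moved with the rest. Ube2c was at 386, 627, 298 and 494 CPM against 155, 184, 125 and 169 CPM (log2 1.46, SE 0.08). Cdk1 was at 172, 237, 174 and 205 CPM against 83.0, 94.5, 85.1 and 87.7 CPM (log2 1.15, SE 0.06, adjusted p = 2.5e-05, edgeR). Mki67 was higher within every library although its level differed between libraries, at 84.7, 77.1, 479 and 102 CPM against 43.1, 31.6, 261 and 43.1 CPM (log2 1.08, SE 0.08). The 2 LOF libraries, which the test did not use, had the same direction for all 21 genes. A gene was higher in all 6 libraries for 21 of 21 G2/M and 12 of 13 S genes, against 24.8% of the 9869 genes with a mean of at least 5 CPM. The summed G2/M level of Wnt-high over Wnt-low cells was 2.25, 2.91, 2.12 and 2.58 in the controls and 2.07 and 2.12 in the LOF libraries.

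**Figure D1:**
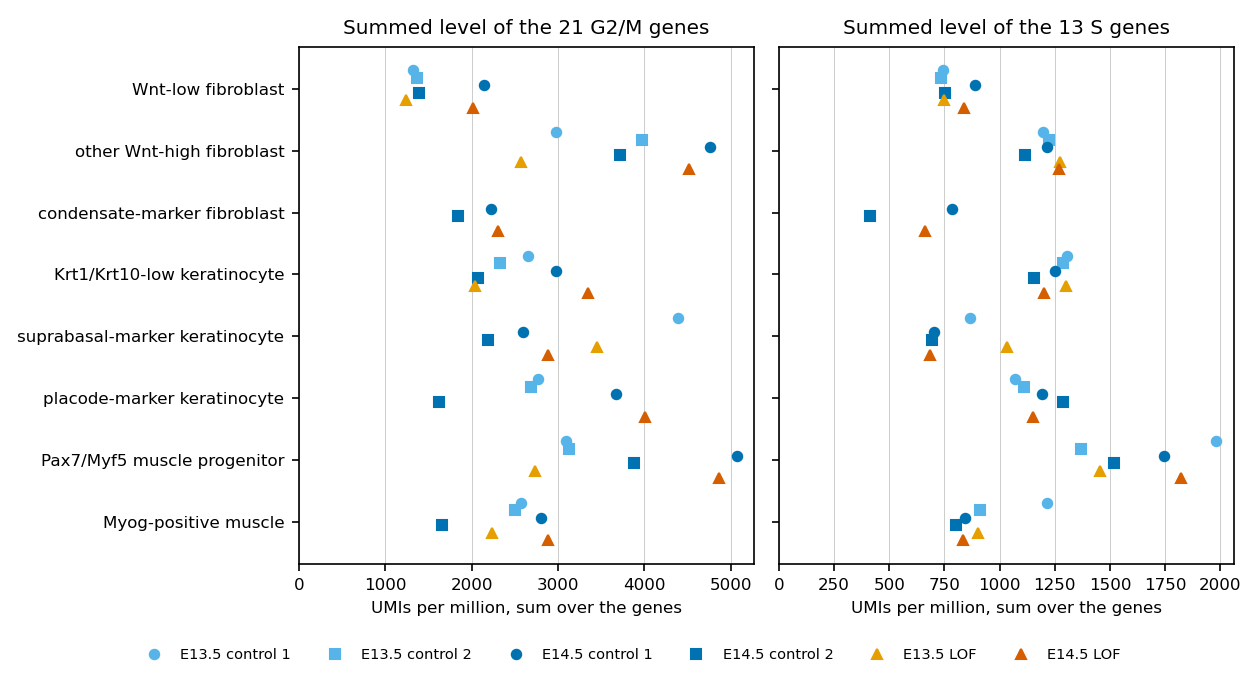
Summed level (CPM) of the 21 G2/M genes and of the 13 S genes in 8 marker-defined cell classes, 1 point per library, circles and squares for control replicates 1 and 2 and triangles for LOF; classes with fewer than 20 cells in a library have no point. In every library the Wnt-high fibroblasts without condensate markers lie above the Wnt-low fibroblasts in both panels, and suprabasal-marker keratinocytes lie below the Krt1/Krt10-low keratinocytes in the S panel in all 5 libraries with both classes, but on either side of them in the G2/M panel.

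S genes rose less. Of the 13, 12 were higher, by log2 0.23 for Mcm4 to 0.97 for Tyms, thymidylate synthase. Mcm5 was at 86.1, 85.8, 64.7 and 66.0 CPM in Wnt-high and 48.8, 55.2, 46.5 and 48.6 CPM in Wnt-low fibroblasts (log2 0.59, SE 0.08, adjusted p = 0.000861, edgeR). Mcm6 changed by log2 0.44 (SE 0.06) and Rrm2, a subunit of ribonucleotide reductase, by 0.74 (SE 0.08). Ccne1, the cyclin of S phase entry, did not pass (log2 −0.13, SE 0.09, adjusted p = 0.318, edgeR), while Ccne2 did (log2 0.62, SE 0.13). The summed S level of Wnt-high over Wnt-low cells was 1.61, 1.67, 1.30 and 1.44 in controls and 1.71 and 1.45 in LOF, below the G2/M ratio in each of the 6 libraries.

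D-type cyclins and inhibitors did not follow one direction. Ccnd1, a textbook Wnt target, was higher by log2 0.27 (SE 0.08, adjusted p = 0.0357, edgeR), with 142, 147.1, 283 and 244 CPM in Wnt-high against 116, 147.5, 211 and 186 CPM in Wnt-low cells, so that 3 of the 4 libraries showed the rise. Ccnd2 did not pass (log2 0.10, SE 0.05). Ccnd3 was lower, the single fall among the 40 genes (log2 −0.53, SE 0.06, adjusted p = 0.000508, edgeR), at 307, 268, 190 and 277 CPM against 406, 353, 307 and 410 CPM. The largest rise of the 40 genes was that of an inhibitor. Cdkn1a (chromosome 17, 29090979 to 29100722) was at 15.0, 14.7, 75.7 and 96.1 CPM in Wnt-high and 2.73, 2.15, 6.62 and 11.3 CPM in Wnt-low fibroblasts (log2 3.00, SE 0.18, adjusted p = 4.42e-05, edgeR). Cdkn2c rose by log2 1.34 (SE 0.12), and Cdkn1b did not pass (log2 −0.0041, SE 0.16).

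Other genes of the cycle were listed by role beside the 40. All 40 of 40 further G2/M genes and 24 of 30 further S genes were higher and none was lower, with median log2 1.21 and 0.60. Among the 4 further genes with the smallest adjusted p, Tacc3, Bub1 and Sgol1, which act at the spindle and kinetochore, rose by log2 1.18, 1.25 and 1.37. The fourth, Cdkn1c (p57), an inhibitor made by cells that leave the cycle, was lower by log2 −1.63 (SE 0.07, adjusted p = 8.74e-06, edgeR), at 1197, 848, 1089 and 970 CPM in Wnt-high against 3086, 2664, 3709 and 3109 CPM in Wnt-low cells. Of 19 genes of G1, E2F and kinase function 9 rose and 1 fell, and of 14 tested genes of cycle exit 6 rose and 1 fell.

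**Figure D2:**
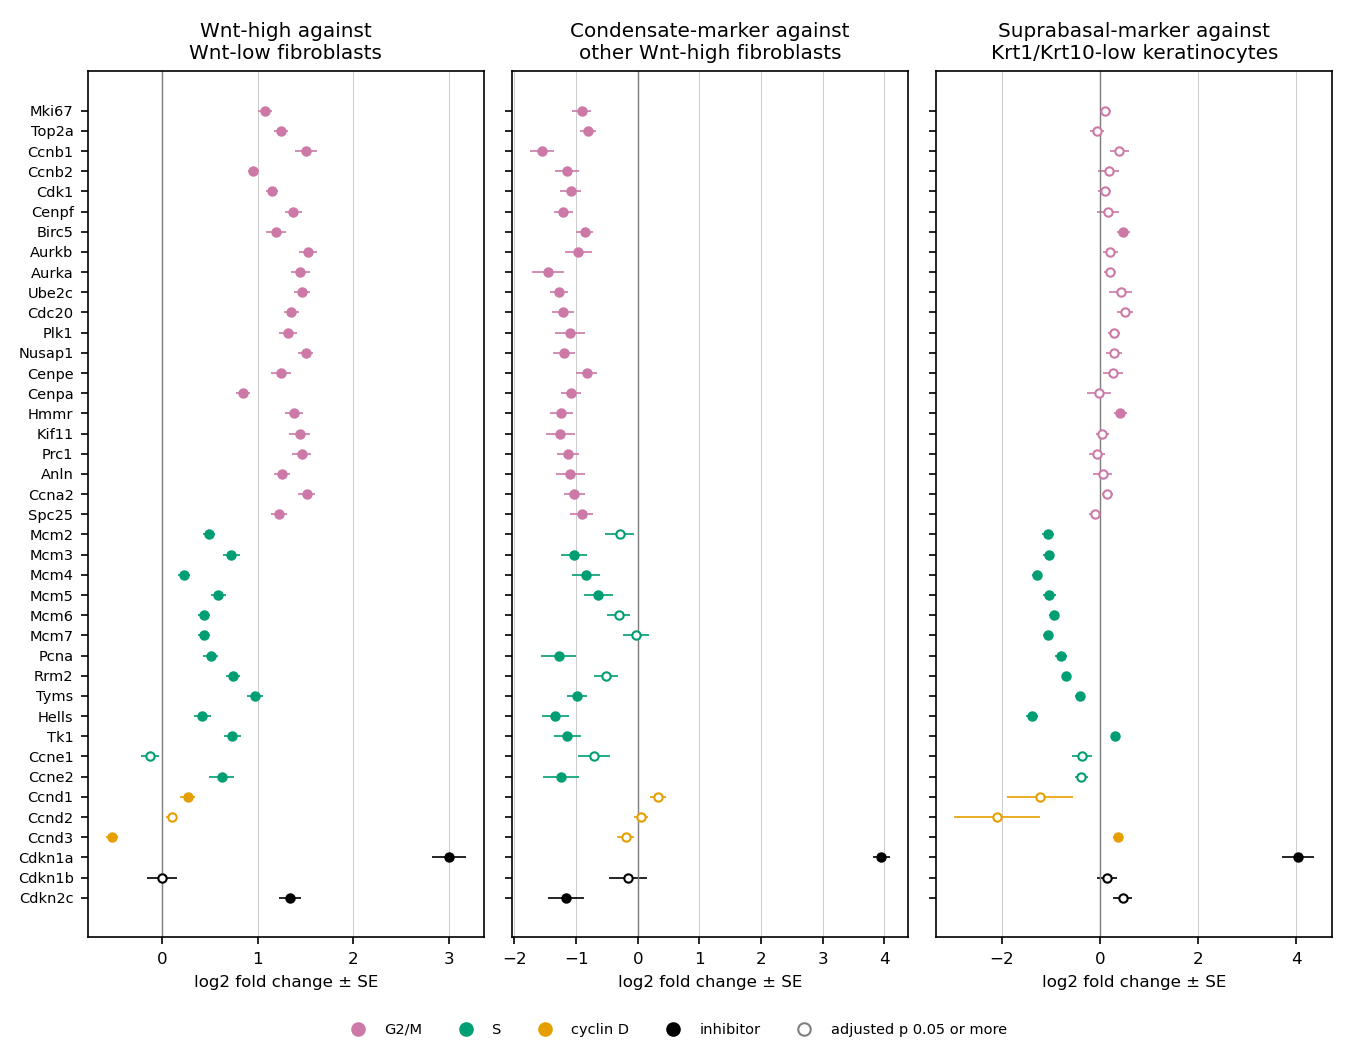
Log2 fold change ± SE of each of the 40 genes in 3 comparisons of cell classes within control libraries (4, 2 and 3 libraries from left to right), coloured by role, with filled points for adjusted p under 0.05. G2/M genes lie right of 0 in the first panel, left of 0 in the second and close to 0 in the third, where 10 S genes passed left of 0, and Cdkn1a lies farthest right in all 3.

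A share of cells in the cycle was counted after thinning each cell to 4000 UMIs, calling a cell G2/M with at least 5 UMIs of the 21 genes, and S with at least 5 UMIs of the 13 genes among the rest. The G2/M share of Wnt-high fibroblasts was 49.1, 60.1, 48.4 and 46.3% in controls and 45.7 and 45.6% in LOF. In Wnt-low fibroblasts it was 20.8, 22.1, 31.1 and 24.5% in controls and 17.9 and 25.0% in LOF. The difference was 25.6 ± 7.39 percentage points (SD, n = 6 libraries), higher in 6 of 6 (exact two-sided sign-flip permutation test, p = 0.03125, the smallest that 6 libraries allow, and 0.0625 adjusted over 12 such tests). Per library, exact 95% binomial intervals, which cover counting error only, were 46.0 to 52.2% for the Wnt-high and 19.2 to 22.4% for the Wnt-low cells of E13.5 control replicate 1. Muscle gives a scale for this threshold: muscle cells with Myog and Chrna1, which marks differentiation out of the cycle, still had G2/M shares of 33.0 to 52.1%, against 62.3 to 84.5% in progenitors with Pax7 or Myf5. Shares of this size were thus also found in a class that should not cycle. The difference in S share, 6.20 ± 4.34 percentage points (exact permutation p = 0.03125), turned to −0.290 at a threshold of 3 UMIs and −1.29 without thinning, so no order of S shares is read.

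The G2/M share rose with Wnt target UMIs from 0 to 3 in every library, and the step into the highest bin differed between libraries. With 0, 1, 2, 3 and at least 4 such UMIs among 4000, the share was 22.5, 30.4, 36.0, 48.8 and 50.2% in E13.5 control replicate 1. It was 25.4, 30.7, 46.4, 50.6 and 62.3% in E13.5 control replicate 2. In all 3 E14.5 libraries the highest bin was below the one before it, at 45.5 after 48.3% and 36.7 after 43.4% in the 2 controls and 38.4 after 43.0% in LOF. These last steps are small, as is that of E13.5 control replicate 1, and were not tested. From the lowest to the highest bin mean Cdkn1a UMIs per cell rose from 0.0373 to 0.562 and from 0.0437 to 0.618 in the E14.5 controls. In the E13.5 controls they rose from 0.0114 to 0.0990 and from 0.00751 to 0.0591. The E13.5 LOF library had 25 cells in the highest bin.

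**Figure D3:**
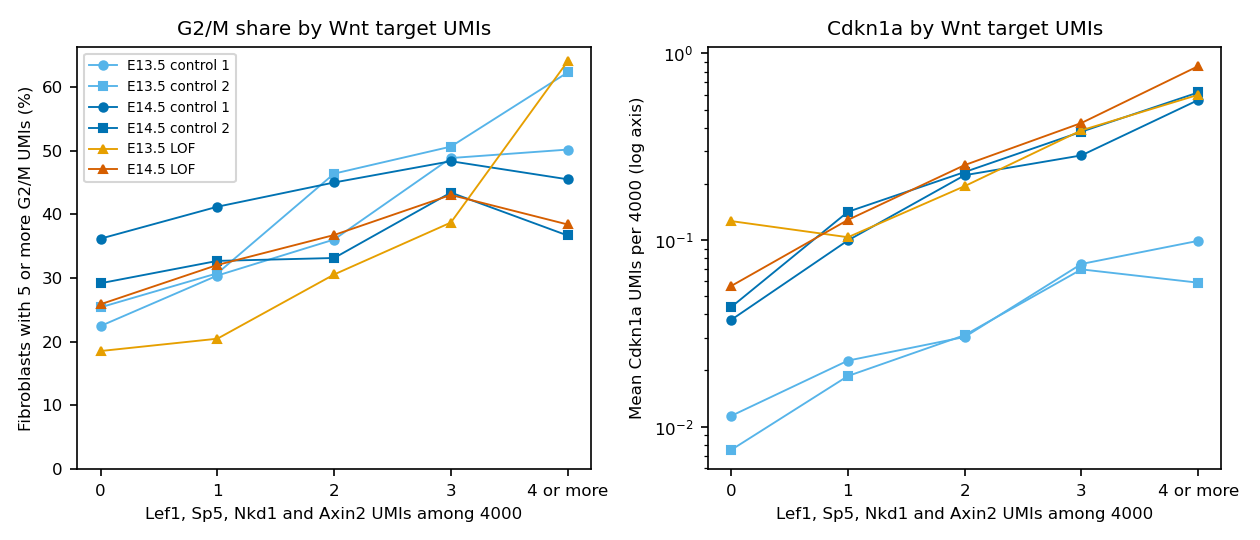
Share of fibroblasts with 5 or more G2/M UMIs (left, percent) and mean Cdkn1a UMIs (right, log axis) by the number of Lef1, Sp5, Nkd1 and Axin2 UMIs, each cell thinned to 4000 UMIs, 1 line per library. At E13.5 the G2/M share of the controls climbs to 50.2 and 62.3% in the highest bin, at E14.5 it ends lower than in the bin before, and Cdkn1a of the E13.5 LOF library starts above the other libraries at 0 Wnt target UMIs.

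Within Wnt-high fibroblasts, cells with markers of the dermal condensate had low cycle genes and high Cdkn1a. Condensate-marker cells had at least 2 UMIs of Sox2, Sox18 and Foxd1, transcription factors of the condensate, and the comparison cells had none. At least 20 such cells were present in the E14.5 libraries only, with 113 and 26 cells in the controls and 32 in LOF. In the 2 controls, 30 of the 40 genes were lower and 1 was higher (edgeR), against 7.17% and 6.36% of 10715 genes, 13.5% together. The 2 libraries leave 1 residual degree of freedom, so these calls lean on spread pooled over genes. DESeq2 called 18 lower, with its share of all genes not given here. All 21 G2/M genes were lower, from log2 −0.81 (Top2a) to −1.55 (Ccnb1). The summed G2/M level was 2221 and 1846 CPM in condensate-marker against 4761 and 3723 CPM in other Wnt-high cells of the controls. The LOF library, outside the test, had 2308 against 4522 CPM, and the ratios were 0.467, 0.496 and 0.510. All 21 G2/M genes and 12 of 13 S genes were lower in each of the 3 libraries, as were 26.3% of 9766 genes.

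Of the S genes 8 were lower, among them Hells, a chromatin remodeller, by log2 −1.34 and Pcna, the replication clamp, by −1.29. Mcm2, Mcm6, Mcm7, Rrm2 and Ccne1 did not pass. Cdkn2c was lower (log2 −1.17, SE 0.30), and no D-type cyclin passed. Cdkn1a was at 486 and 887 CPM in condensate-marker cells of the controls, from 534 and 210 UMIs, against 35.8 and 48.7 CPM in the other Wnt-high cells (log2 3.95, SE 0.14), and at 826 against 60.8 CPM in LOF. The groups did not overlap. Cdkn1c, lower in Wnt-high cells as a whole, was higher in condensate-marker cells (log2 1.93, SE 0.11), as was Btg1, an anti-proliferative gene (log2 1.13, SE 0.12). Of the further genes 37 of 40 G2/M and 19 of 30 S genes were lower and none was higher. The G2/M share was 23.1, 26.9 and 21.9% in condensate-marker cells, a mean difference of −25.5 ± 4.05 percentage points (SD, n = 3), for which an exact permutation test cannot go below p = 0.25.

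**Figure D4:**
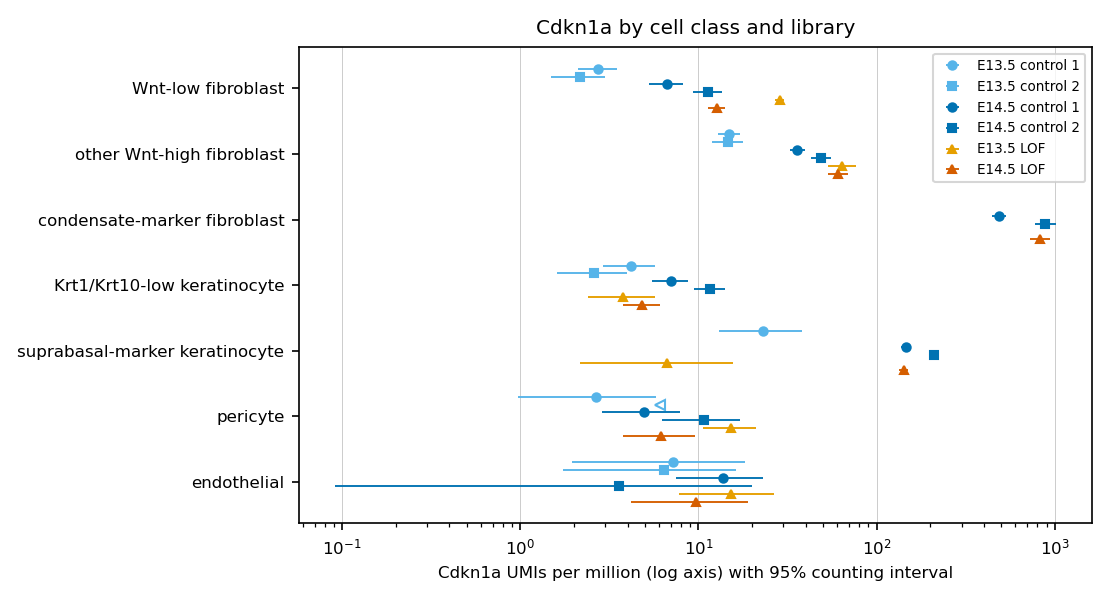
Cdkn1a level (CPM, log axis) in 7 cell classes by library with exact 95% Poisson intervals of the counts, and an open triangle at the upper limit where no UMI was seen. Condensate-marker fibroblasts (486 to 887 CPM) and E14.5 suprabasal-marker keratinocytes (142 to 210 CPM) are highest, and in Wnt-low fibroblasts the E13.5 LOF library (28.6 CPM) lies above all others.

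By phase, as a description of cells sorted by their own cycle genes, D-type cyclins and inhibitors took different places. In fibroblasts Ccnd1 and Ccnd2 were lowest in G2/M cells in every library, for Ccnd2 at 406 to 502 CPM against 672 to 887 CPM in S and 561 to 781 CPM in cells called neither. Cdkn2c was highest in G2/M fibroblasts, at 31.6, 24.7, 49.7 and 96.5 CPM in controls, against 1.81, 1.77, 3.91 and 10.9 CPM in cells called neither. Cdkn1a was highest in cells called neither at E14.5. In E14.5 control Wnt-high fibroblasts it was at 168 and 189 CPM in cells called neither against 34.8 and 47.0 CPM in G2/M cells, and in E14.5 control keratinocytes at 140 and 196 against 21.4 and 37.4 CPM.

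Between dermis and epidermis the set was not uniform. In the 4 controls 4 of the 40 genes were higher in fibroblasts and 13 were lower, where 33.6% and 31.7% of all 13559 genes were called higher and lower, 65.3% together, so the share of the 40 called is below that of all genes. Ccnd1 was higher in fibroblasts, at 129, 149, 247 and 211 CPM against 47.5, 35.3, 43.9 and 35.8 CPM in keratinocytes (log2 2.04, SE 0.20, adjusted p = 0.000402, edgeR). Cdkn2c (log2 1.61, SE 0.30), Ccnd3 (0.63, SE 0.08) and Ccne1 (0.56, SE 0.08) were also higher. Of the S genes 7 were lower, led by Tk1, thymidine kinase (log2 −0.92, SE 0.10), and of the G2/M genes 6, led by Cenpf, a kinetochore protein (log2 −0.65, SE 0.15). Further S genes were lower in 26 of 30 cases, among them Uhrf1 and Cdca7 (log2 −1.14 and −0.86). Cdkn1c and Btg2, genes of cycle exit, were higher in fibroblasts by log2 3.76 and 2.56. The G2/M share was 19.3 to 40.9% in fibroblasts and 49.0 to 61.3% in keratinocytes, lower in 6 of 6 libraries (−23.2 ± 8.29 percentage points, exact permutation p = 0.03125, adjusted 0.0625). In replicate 1 of the E14.5 control the summed G2/M level went the other way, at 3361 CPM in fibroblasts against 3106 CPM, and no order is read there. Leaving out replicate 2 of the E13.5 control left 6 of the 40 genes lower, with the share of all genes in that fit not given.

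Within the epidermis, cells with suprabasal keratins had lower S genes, and no G2/M gene was called lower over the 3 controls used. Suprabasal-marker cells had at least 5 UMIs of Krt1 and Krt10, the keratins of cells above the basal layer, and the comparison cells at most 1. Replicate 2 of the E13.5 control had 13 such cells and was not used, so 3 controls and 2 residual degrees of freedom remain. Of the 40 genes 10 were lower and 5 higher, against 18.2% and 16.6% of 11482 genes, 34.8% together. The 10 were the S genes Mcm2 to Mcm7, Hells, Pcna, Rrm2 and Tyms. Mcm4 was at 34.0, 46.5 and 26.9 CPM in suprabasal-marker against 85.4, 116 and 69.2 CPM in Krt1/Krt10-low cells of E13.5 control 1 and the 2 E14.5 controls (log2 −1.29, SE 0.10, adjusted p = 0.000524, edgeR). The LOF libraries had 61.4 and 46.7 against 82.0 and 115 CPM. Hells was lower by log2 −1.38 (SE 0.12) and Mcm5 by −1.03 (SE 0.13). Of 30 further S genes 25 were lower, Chaf1b, Gins2, Ung and Dtl by log2 −1.63, −1.26, −1.17 and −1.32.

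G2/M genes had a median log2 of 0.18, and 2 of 21 passed, Birc5 (survivin, 0.48, SE 0.13) and Hmmr (0.42, SE 0.13), both higher. The summed G2/M level of suprabasal-marker over Krt1/Krt10-low cells was 1.66 and 1.69 in the E13.5 control and LOF libraries, with 33 and 36 cells, and 0.872, 1.06 and 0.859 at E14.5. The S ratio was 0.560 to 0.794 in the same 5 libraries. Cdkn1a was higher, at 23.2, 146 and 210 CPM against 4.16, 6.99 and 11.6 CPM (log2 4.04, SE 0.32, adjusted p = 0.00111, edgeR), but in the E13.5 LOF library at 6.67 against 3.78 CPM, from 36 cells. Ccnd3 and Tk1 were higher by log2 0.37 and 0.31. At E14.5 Ccnd2 was at 97.9 and 108 CPM in suprabasal-marker against 875 and 777 CPM in Krt1/Krt10-low cells of the controls, but at 477 against 536 CPM in E13.5 control 1, and it did not pass over the 3 libraries (log2 −2.09, SE 0.87). Without replicate 1 of the E13.5 control 17 of the 40 genes were lower and 10 higher, so the absence of lower G2/M calls is read only for the 3 libraries together. Without replicate 1 of the E14.5 control 2 were higher, and without replicate 2 of the E14.5 control 1 was. Shares of all genes called in these reduced fits are not given, so whether the 40 genes moved more than the rest is not read.

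Placode-marker keratinocytes, with at least 3 UMIs of Shh, Dkk4, Edar and Lhx2, differed from Krt1/Krt10-low cells without them in 1 of the 40 genes, against 2.89% of all genes (1.8% higher and 1.09% lower). Ccnd3 was lower, at 189, 158, 83.0 and 139 CPM against 254, 243, 138 and 173 CPM (log2 −0.49, SE 0.10, adjusted p = 0.00871, edgeR), and lost the call without replicate 1 of the E14.5 control. The G2/M share differed by 1.56 ± 4.40 percentage points (n = 5, exact permutation p = 0.5). The classes held 41 to 77 placode-marker cells per control library.

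Stage differences in controls rested largely on single libraries. In fibroblasts none of the 40 genes, and 0% of 14244 genes, passed between E13.5 and E14.5 by edgeR with 2 residual degrees of freedom, while 2512 genes had an unadjusted p under 0.05 and DESeq2 called 898, with 6 of the 40 higher. On simulated counts of these libraries the test recovered 70.5% of genes changed by log2 1 and 98.2% of those changed by log2 2. On the real counts Mki67 did not pass at log2 2.08 (SE 0.72), so this recovery is not taken as the power of the real test. In E14.5 fibroblasts Cdkn1a was at 37.0 and 40.6 CPM, above 6.25 and 5.44 CPM at E13.5 (log2 2.77, SE 0.27, adjusted p = 0.0646, edgeR), and the groups did not overlap. Cdkn2c was at 12.3 and 10.9 CPM at E13.5 and at 26.6 and 43.6 CPM at E14.5 (log2 1.66, SE 0.36). Mki67 showed the library pattern, at 56.2 and 45.5 CPM at E13.5 and 374 and 65.7 CPM at E14.5. The 8 genes of that pattern summed to 372, 371, 1522 and 436 CPM in the 4 controls, and the other 14 G2/M genes to 1468, 1811, 1872 and 1748 CPM, a division made from these same levels. Without replicate 2 of the E14.5 control 14 genes were called higher, and without any other control 2 were. The share of all genes called in those fits is not given, so these counts are not read as particular to the 40 genes.

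In keratinocytes Cdkn1a rose with stage, from 4.47 and 2.31 to 48.7 and 76.6 CPM (log2 4.29, SE 0.47, adjusted p = 0.00926, edgeR), the 1 call among the 40 genes where 2.58% of 12682 genes were called higher and 0.781% lower, 3.36% together. In Krt1/Krt10-low keratinocytes it was at 4.16 and 2.60 CPM at E13.5 and 6.99 and 11.6 CPM at E14.5. Suprabasal-marker cells were 33 and 13 at E13.5 and 535 and 564 at E14.5, so the rise in the whole class moved with the number of these cells, whose part in it was not tested. Within suprabasal-marker cells the level was 23.2 CPM in E13.5 control 1 and 146 and 210 CPM at E14.5, and in the 13 such cells of E13.5 control 2 no UMI was seen, which allows up to 25.8 CPM. All 21 G2/M genes summed to 2948 and 2525 CPM at E13.5 and 3106 and 2275 CPM at E14.5 in keratinocytes, and the 14 outside the library pattern to 2370 and 2111 CPM at E13.5 and 1707 and 1817 CPM.

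The stage difference itself differed between dermis and epidermis for 15 of the 40 genes, against 18.7% of all genes (edgeR, interaction of class and stage within libraries, 2 residual degrees of freedom). For 14 the change from E13.5 to E14.5 was more positive in fibroblasts, against 9.54% of all genes, and for Cdkn1a it was less positive (log2 −1.45, SE 0.28), against 9.14%. Cdk1 was at 110 and 140 CPM at E13.5 and 130 and 133 CPM at E14.5 in fibroblasts, and at 177 and 175 against 100 and 118 CPM in keratinocytes (log2 of the difference 0.74, SE 0.14, adjusted p = 0.0068, edgeR). Pcna (0.56), Tyms (0.52), Mcm3 (0.54) and Rrm2 (0.41) of the S genes had the same direction. A shift shared by all cells of a library cancels here, but a change in the make-up of a class does not. Suprabasal-marker cells, which had lower S genes, were more numerous at E14.5, and their part in this was not tested. The count was 4 without replicate 1 of the E14.5 control, 9 without replicate 1 of the E13.5 control and 26 without replicate 2 of the E13.5 control. Shares of all genes called in these fits are not given, so the counts are not set against all genes.

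**Figure D5:**
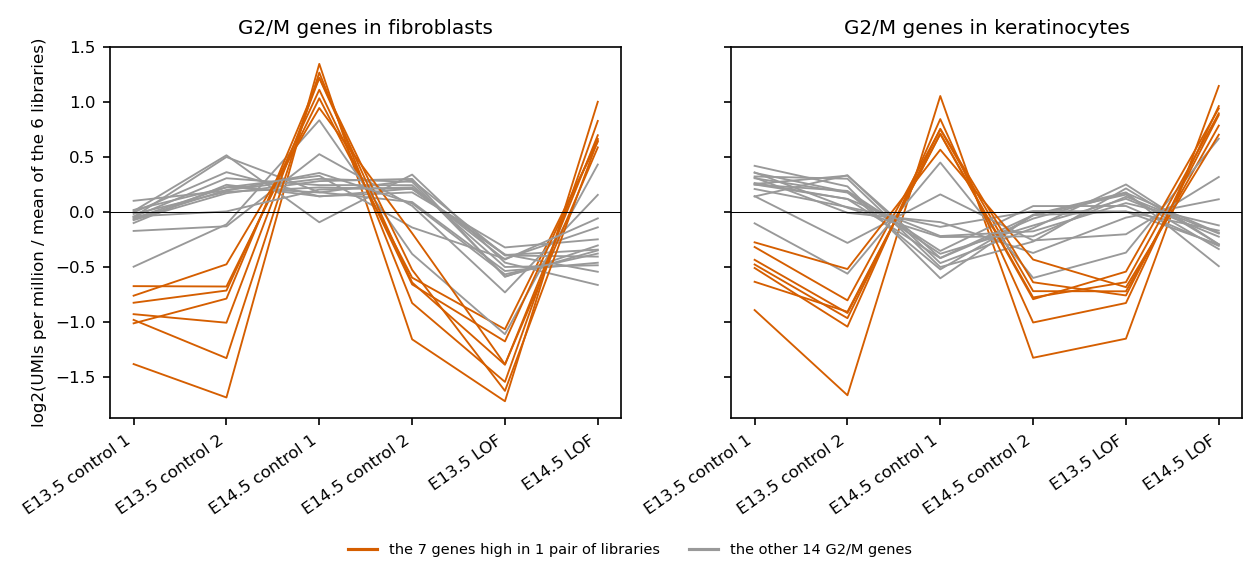
Level of each of the 21 G2/M genes relative to its mean over the 6 libraries (log2), in fibroblasts (left) and keratinocytes (right), 1 line per gene. The 7 genes drawn in orange are high in E14.5 control 1 and E14.5 LOF in both classes. In fibroblasts all 21 lie below their mean in the E13.5 LOF library. E14.5 control 1 and E14.5 LOF raise the mean of the 7 orange genes. For these 7 a place below the mean is therefore not read as particular to the E13.5 LOF library.

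The LOF libraries had fewer Wnt-high fibroblasts and, at E13.5, lower G2/M levels in fibroblasts as a whole, without a call for any of the 40 genes. Over both stages 0 of the 40 and 0.013% of 15356 genes passed (edgeR, 3 residual degrees of freedom), 1303 genes had an unadjusted p under 0.05, and DESeq2 called 4 of the 40 lower and 1.91% of all genes in either direction. The test recovered 84.2% of genes changed by log2 1 on simulated counts, which is not taken as its power on the real counts. At E13.5 the LOF library was below both controls in 21 of 21 G2/M genes, against 34.1% of 9920 genes, and in 9 of 13 S genes. At E14.5 it was below both in 11 of 21, against 30.6%, and above both in 0 of 21, against 30.9%. It was below replicate 1, which shares its library pattern, in 21 of 21, which compares 1 library with 1. The share of all genes below replicate 1 is not given, but the median log2 of LOF over replicate 1 was −0.514 in the 21 genes and −0.0461 over all 9920. In other classes of E14.5 LOF the count below replicate 1 was 21 in pericytes, 12 in Schwann cells, 11 in muscle, 7 in macrophages and 1 in keratinocytes. Ccna2, the cyclin of S and G2, was at 70.8 CPM in LOF against 113 and 120 CPM at E13.5, and at E14.5 at 80.7 against 134 and 111 CPM (log2 −0.71, SE 0.15, adjusted p = 0.294, edgeR). Cdc20 was at 69.3 against 95.1 and 121 CPM, and at 70.1 against 116 and 116 CPM (log2 −0.74, SE 0.18). All 21 G2/M genes summed to 1336 CPM in LOF against 1828 and 2173 CPM at E13.5, below both controls, and to 2404 against 3361 and 2172 CPM at E14.5, between them. The 14 genes outside the library pattern summed to 1071 against 1468 and 1811 CPM at E13.5 and to 1286 against 1872 and 1748 CPM at E14.5, but leaving out genes that are high in the E14.5 LOF library lowers its sum by construction, so nothing is read from the order at E14.5. With a term for the pairs of libraries 6 genes were lower, and with controls of replicate 1 only, which are nearly without eGFP, 6 were lower, where 1.22% and 1.39% of all genes were called in either direction, each with 1 residual degree of freedom. Both of these alternatives were chosen after the data had been seen.

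Wnt-high cells made up 23.5, 19.7, 38.8 and 23.8% of fibroblasts in the controls but 2.99% (E13.5) and 10.8% (E14.5) of LOF fibroblasts. Within the classes the difference in G2/M genes was smaller. In Wnt-low fibroblasts E13.5 LOF was below both controls in 12 of 21 G2/M genes, against 27.1% of genes, and above both in 0, against 37.8%, while E14.5 LOF was below both in 7 of 21, against 28%, and above both in 6 of 21, against 31.5%, shares close to those of all genes. The summed G2/M level there was 1244 CPM in LOF against 1316 and 1364 CPM at E13.5, and 2015 against 2148 and 1390 CPM at E14.5. In Wnt-high fibroblasts, 130 cells in E13.5 LOF, 19 of 21 G2/M genes were below both controls, against 38.1%, and 0 above both, against 33.6%. At E14.5 10 of 21 were below both, against 29.2%, and 4 above both, against 32.8%. The S genes did not follow this. Of the 13 in Wnt-high cells, 2 were below and 5 above both at E13.5, and 2 below and 8 above at E14.5. In Wnt-low cells 4 of 13 were below and 4 above both at each stage. For none of the 40 genes was a different Wnt-high to Wnt-low change called between genotypes (edgeR, 0% of 12704 genes called, 540 with an unadjusted p under 0.05, and DESeq2 called none of the 40). This does not show that the change was equal. The fitted interaction was log2 −0.51 (SE 0.19) for Ccnb1 and 0.52 (SE 0.14) for Ccnd1. In other classes of E13.5 LOF, 21 of 21 G2/M genes in Schwann cells, 18 of 21 in pericytes and 12 of 21 in macrophages were below both controls, against 29.8%, 26.3% and 28.5% of all genes, and 0 of 21 were above in each, against 34.2%, 31.1% and 32.6%. At E14.5 the counts below both were 8 in Schwann cells, 12 in pericytes and 2 in macrophages, against 25.5%, 24.8% and 23.6%, and those above both were 6, 0 and 13, against 33.3%, 35.6% and 38.1%. Muscle was mixed, with 12 of 21 below and 5 above both at E13.5, and 6 below and 10 above at E14.5. Shares of all genes are not given for muscle. Of 13 S genes at E13.5, 9 in Schwann cells, 10 in macrophages and 0 in pericytes were below both, and 0, 1 and 5 were above both. Whether library or genotype plays a part in this was not tested.

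Cdkn1a was high in LOF fibroblasts at E13.5 in both Wnt classes. In Wnt-low fibroblasts it was at 28.6 CPM in E13.5 LOF (1203 UMIs, exact 95% Poisson interval 27.0 to 30.2, counting error only) against 2.73 and 2.15 CPM in controls of that stage, from 67 and 34 UMIs. At E14.5 it was at 12.6 CPM in LOF against 6.62 and 11.3 CPM. In Wnt-high fibroblasts it was at 64.2 against 15.0 and 14.7 CPM at E13.5, and at 122 against 75.7 and 96.1 CPM at E14.5. In keratinocytes, which are nearly without Pdgfra, E13.5 LOF was at 3.49 CPM, between the controls at 4.47 and 2.31 CPM. Other classes of the E13.5 LOF library were also above both controls. Pericytes were at 15.2 CPM (35 UMIs, exact 95% Poisson interval 10.6 to 21.1) against 2.65 and 0 CPM, from 6 and 0 UMIs, where 0 UMIs allow up to 6.09 CPM. Endothelial cells were at 15.1 CPM (12 UMIs, interval 7.82 to 26.4) against 7.17 and 6.37 CPM, from 4 UMIs each, with overlapping intervals. With 1 LOF library per stage this has no replicate. In keratinocytes no gene passed between genotypes (0% of 13539 genes by edgeR, 228 with an unadjusted p under 0.05, 2 by DESeq2). Keratinocyte G2/M genes were below both controls in 10 of 21 cases at E13.5 and above both in 12 of 21 at E14.5, where 32.1% and 29.6% of genes were, and 1 of 21 was below both at E14.5, against 31.4%.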

How the data were processed

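Single-cell libraries of mouse back skin (10x Genomics 3′) were deposited as UMI counts per gene and cell. Per the submitters' processing notes, the authors used Cell Ranger, Seurat and mm10 (GRCm38), with versions not given in the sources used here. Cells entered from 1000 UMIs and 500 genes upward, with no more than 10% of UMIs from mitochondrial genes, and were classed by summed marker UMIs. Doublets were not removed, except that cells passing 2 class rules were left out. An alternative dropped the 4.68 to 7.14% of cells per library with the highest simulated-doublet scores. Counts were summed per library and class and tested with edgeR 4.0.16 (R 4.3.3; TMM scaling, filterByExpr, robust quasi-likelihood fit, Benjamini-Hochberg over all genes, threshold 0.05), with DESeq2 1.42.0 as an alternative, and the fits were checked on simulated counts. Levels are UMIs per 1000000 UMIs (CPM) of the class in a library. Shares of cycling cells used an exact sign-flip permutation test over libraries (scipy 1.17.1). All 40 genes are accounted for, and of other cycle genes up to 4 per comparison with the smallest adjusted p are named. The 40 genes, lists and class rules were chosen with earlier results of these data known. Libraries are pools of embryos, so p-values of tests without a library block measure the spread between pools. With library as a block they concern the class difference within pools. All edgeR p-values lean in part on spread pooled over genes.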

Additional observations from a re-analysis of the deposited data

Results flagged for a closer look

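The change from E13.5 to E14.5 was more positive in fibroblasts than in keratinocytes, by the interaction test of edgeR (adjusted p under 0.05), for Cdkn2c by log2 1.32, Cdk1 by 0.74, Aurkb by 0.70, Kif11 by 0.67, Ccnb2 by 0.63, Spc25 by 0.62, Pcna by 0.56, Mcm3 by 0.54, Anln and Tyms by 0.52, Ccne2 by 0.51, Ccna2 and Rrm2 by 0.41 and Hells by 0.37. More positive is not larger: the fitted stage difference of Cdk1 was log2 0.11 in fibroblasts and −0.61 in keratinocytes, and that of Rrm2 −0.22 and −0.63, none of which passed on its own. For Cdkn1a the difference was −1.45. The reporter row eGFP, which enters no comparison, was at 350 and 324 CPM in fibroblasts of the E13.5 and E14.5 LOF libraries, above all control libraries.

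For some genes the LOF library lay beyond both controls in opposite directions at the 2 stages, a difference that was not tested. As log2 of LOF over the control mean at E13.5 and E14.5, fibroblast values were −0.32 and 0.39 for Ccne2 and 2.15 and −0.38 for Cdkn1a. Within both Wnt classes Cdkn1a of E14.5 LOF was above both controls, at 12.6 against 6.62 and 11.3 CPM in Wnt-low and 122 against 75.7 and 96.1 CPM in Wnt-high cells, and Wnt-high cells were 10.8% of its fibroblasts against 38.8 and 23.8%. In keratinocytes the log2 values were −0.21 and 0.34 for Plk1, −0.29 and 0.55 for Prc1, −0.10 and 0.07 for Ccna2, 0.31 and −0.30 for Pcna, −0.18 and 0.35 for Hells, and −0.18 and 0.37 for Ccne2. No group has the 4 libraries that a search for outlying samples needs.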

How the results depend on the processing

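Among the followed genes, 1010 gene-level values kept their direction and side of the threshold, 97 lost and 194 gained the call, and 0 reversed. Counts of the 40 genes called moved as follows, and the cause was not tested. For most alternatives and for fits without 1 library, the share of all genes called is not given. A moved count is therefore not read as particular to the 40 genes. Fibroblast stage, 0 higher as reported, gave 6 by DESeq2, 2 with any count, 2 with the replicate block and 6 with a library pair term. Keratinocyte stage, 1 higher, gave 0 without scaling, 2 with any count, 4 with the replicate block and 3 with the pair term, which also gave 5 lower against 0. Fibroblast genotype, 0 lower, gave 4 by DESeq2, 6 with the pair term and 6 with controls of replicate 1 only. Fibroblast against keratinocyte, 13 lower, gave 8 without scaling, 8 in cells of 6000 to 14000 UMIs and 23 in all libraries. The interaction, 1 lower, gave 0 in that UMI window. Suprabasal-marker cells, 5 higher and 10 lower, gave 2 higher by DESeq2, 3 without scaling and 3 in the UMI window, which gave 16 lower. Condensate-marker cells, 30 lower and 1 higher, gave 18 lower by DESeq2 and 2 higher in all libraries. Placode-marker cells, 1 lower, gave 2 without scaling, with any count, without high doublet scores and in all libraries.

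Leaving out 1 library at a time gave 2 to 14 higher for fibroblast stage, 1 to 9 higher and 0 to 11 lower for keratinocyte stage (9 and 11 without replicate 2 of the E14.5 control), 4 to 5 higher and 6 to 19 lower for fibroblast against keratinocyte, 4 to 26 higher for the interaction, 34 to 35 higher for Wnt-high cells, 1 to 10 higher and 7 to 17 lower for suprabasal-marker cells, and 0 to 2 higher and 0 to 1 lower for placode-marker cells. The condensate comparison, with 2 libraries, could not be tested this way.

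S shares depended on the thinning. In percentage points, Wnt-high minus Wnt-low gave −0.2895 at a threshold of 3 UMIs, 2.581 at 6000 UMIs and −1.292 unthinned, and fibroblast minus keratinocyte gave 0.6893, −1.825 and 4.503. The placode S share, 0.1378 as reported, gave −0.8594 at 3, −4.216 at 8 UMIs, −1.599 at 6000, −0.03829 without high doublet scores and −1.99 without the 8 genes of the library pattern, its G2/M share −0.4213 unthinned, and the Myog S share −0.844 unthinned. Without 1 library each, G2/M differences were 23.17 to 27.31 (Wnt), −25.27 to −21.36 (fibroblast minus keratinocyte), −2.031 to 6.844 (suprabasal), −27.79 to −23.88 (condensate), 0.3663 to 2.491 (placode) and −32.89 to −29.47 (muscle), and S differences 4.89 to 7.033, −9.223 to −7.537, −17.1 to −13.71, −12.94 to −10.91, −1.445 to 1.131 and −11.49 to −9.061. Replicate numbers are shared by control groups, and the replicate 1 minus 2 differences correlated between stages by 0.373 in fibroblasts and 0.377 in keratinocytes, over genes. With 2 pairs this does not pair the libraries.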

Other observations

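Beside Cdkn1a, single genes differed in fibroblasts of the E13.5 LOF library, in both Wnt classes. In Wnt-low cells of that library 37.8% of all genes were above both controls. Ccng1 in Wnt-low cells was at 63.6 CPM against 25.4 and 22.6 CPM in controls of that stage, and at 58.9 CPM in E14.5 LOF against 49.6 and 30.8 CPM. Phlda3 was at 115 CPM in E13.5 LOF against 63.9 and 53.8 CPM, but at 61.3 CPM in E14.5 LOF, between the controls at 67.1 and 56.2 CPM. Bax was at 192 against 142 and 162 CPM at E13.5. Mdm2 was at 34.8 against 30.9 and 31.7 CPM and Gadd45a at 8.48 against 7.21 and 7.27 CPM, smaller differences. In E13.5 LOF keratinocytes Phlda3 was at 64.3 CPM, below both controls at 69.8 and 81.4 CPM. Phlda3, Bax, Sesn2 and Trp53inp1 were chosen after their values were seen, and with 1 LOF library per stage these are values without a test.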
